A study of Mus musculus with 15 samples.

Results

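The regions described here are sites where PU.1 was found on chromatin assembled in a tube and in control macrophages, but not in macrophages carrying a hairpin against PU.1. A control region is a stretch with a PU.1 peak in both control libraries, and it is called lost where neither shPU.1 library had a peak, kept where both had one and partial where 1 had one. Of 53107 regions merged from the 4 in vivo peak lists, 21680 were control regions. Lost regions made up 29.1% of these (6301 regions). An in vitro peak shared at least 1 bp with 840 of the lost regions, which is 13.3% of the lost regions (exact 95% interval 12.5 to 14.2), and 3.87% of all control regions. In vitro peaks lay in 27.6% of control regions (5987), and the members are 14.0% of those (13.2 to 14.9). These 840 regions are the members. They are set beside 5461 lost regions without an in vitro peak, 3420 kept and 1727 partial regions with one. Count and share depended on single libraries: they were 3372 and 21.4% of lost regions without control replicate 1, and 2460 and 19.7% without shPU.1 replicate 2. The members were chosen by the presence and absence of peaks in these 5 lists, so the scores and shares taken from the same lists describe them and are not tests.

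All cells were bone marrow-derived macrophages of C57BL/6 mice, taken after 7 days of differentiation. Control cells (2 libraries) carried a retroviral vector with an inducible hairpin against Renilla luciferase, a vector the sample titles call empty, and shPU.1 cells (2 libraries) carried the same kind of vector with a hairpin against PU.1. Both groups were selected with 3 µg/ml puromycin from day 3, and per the labels the hairpin was induced with 0.5 µg/ml doxycycline for 48 hours from day 5. The protocol text is the same for both groups and does not say whether control cells also received doxycycline. Cells of both groups were fixed with 1% formaldehyde for 10 minutes, while no fixation is listed for the in vitro libraries. In vitro chromatin was made from recombinant histones and naked macrophage DNA by salt dialysis and trimmed mostly to short nucleosome chains. It was incubated for 2 hours with macrophage nuclear extract depleted with normal IgG (1 library) or with a PU.1 antibody (1 library), and PU.1 was then precipitated. The other 9 of the 15 samples, which are nucleosome maps, were not analysed here. The labels do not tie the replicates to separate mice or cultures, and no list measures how far PU.1 fell.

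PU.1 (gene Spi1) is an ETS-family transcription factor that binds purine-rich DNA around a GGAA core and is required for myeloid cells to form. In macrophages it occupies promoters and a large set of distal enhancers. It can engage its site in nucleosomal DNA and helps to keep enhancers open, together with partners such as C/EBP, AP-1 and IRF proteins. Chromatin assembled from pure DNA and histones lacks the histone modifications and bound proteins of a nucleus. Binding there thus reflects DNA, histones and what the added extract supplies.

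Peak numbers set the frame for every value below. The control lists held 30026 and 36759 peaks, the shPU.1 lists 15122 and 27733, and the in vitro list 57512. The exact two-sided permutation p for fewer peaks under the hairpin was 0.33, the smallest that 2 against 2 libraries can give. Median peak widths were 435 and 448 bp in the replicate 1 lists and 892 and 1076 bp in the replicate 2 lists. Depth is unknown, so a lost region is one without a called peak, not one shown to be free of PU.1. A missing peak also cannot tell fewer cells with the site bound from lower occupancy in each cell.

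Members scored below most control regions in control macrophages. The MACS score, which by convention is 10 times the negative log10 of a peak's p-value, had a median of 74.3 (quartiles 60.0 and 99.0) in the list of control replicate 1, where the lowest score of any peak was 50. In control replicate 2 the median was 114 (78.6 and 184). The median score of all peaks was 94.8 in the first list and 120 in the second, so members were low in replicate 1 and near the middle of the list in replicate 2. Over all control regions the median scores were 116 and 191, above those of members in both lists. The score was under 100 in control replicate 1 for 638 of the 840 members (76.0%), in control replicate 2 for 348 (41.4%), and in both for 293 (34.9%). In lost regions without an in vitro peak these shares were 58.2%, 46.2% and 34.3%. Over all control regions they were 41.8%, 22.6% and 16.8%. Kept regions with an in vitro peak had median scores of 183 and 423 in the same lists, and 2.81% of them were under 100 in both.

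The 2 control libraries ranked the members differently. As a percentile within its list (100 is the highest), the median member stood at 34.0 in control replicate 1 and at 47.7 in control replicate 2. Lost regions without an in vitro peak stood at 47.0 and 44.0. Members were thus lower than these in the first list and slightly higher in the second. A higher percentile in control replicate 2 was found for 63.2% of members (exact 95% interval 59.9 to 66.5) and for 44.8% (43.5 to 46.2) of lost regions without an in vitro peak. It was found for 72.4% of kept and 70.2% of partial regions with an in vitro peak and for 58.4% of all control regions, so it was not particular to members. The mean percentile over both lists, called control rank below, had a median of 41.2 in members, 43.3 in lost regions without an in vitro peak, 56.9 in partial and 82.0 in kept regions with one.

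**Figure D1:**
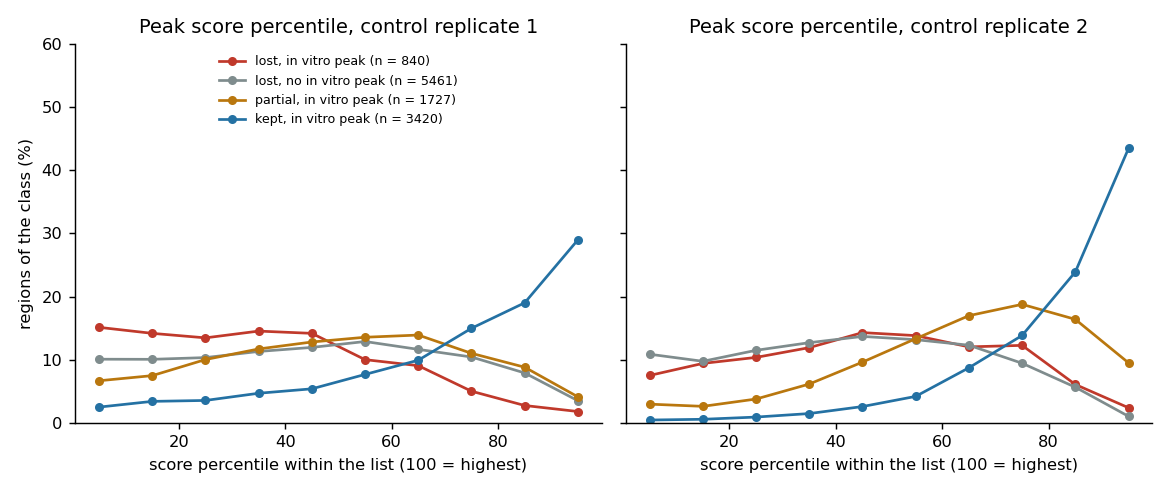
Share of regions (y axis, percent of the class) by score percentile within the list of control replicate 1 (left) and control replicate 2 (right), in steps of 10 percentiles. Members (red) lean to the low end in replicate 1, with a median of 34.0, and are spread over the middle in replicate 2, with a median of 47.7, while kept regions with an in vitro peak (blue) rise to the highest percentiles.

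Members were also narrow. Their control peaks had median widths of 382.5 bp in replicate 1 and 873.5 bp in replicate 2, against 465 and 956 bp in lost regions without an in vitro peak. The whole region spanned a median of 895.5 bp against 987 bp. A single peak of each control list made up 816 of the 840 members (97.1%). The same held for 5190 of the 5461 lost regions without an in vitro peak (95.04%) and for 90.4% of all control regions. The centres of the 2 control peaks lay a median of 96.2 bp apart in members and 110.5 bp apart in lost regions without an in vitro peak.

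Loss of regions that held an in vitro peak became rarer with higher control rank. In the lowest decile of rank over all control regions, 203 of 374 such regions were lost (54.3%, exact 95% interval 49.1 to 59.4). In the fifth decile the share was 15.5% (12.6 to 18.8), and in the highest 8 of 956 were lost (0.837%, 0.362 to 1.64). Control regions without an in vitro peak were lost more often in each decile, with 66.1% (63.9 to 68.3) in the lowest, 35.7% (33.4 to 38.1) in the fifth and 2.39% (1.61 to 3.42) in the highest. Both control lists and both shPU.1 lists enter these shares through the rule.

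Few members had strong control peaks. In 118 of the 840 (14.0%), both control peaks were among the 15122 highest of their lists, which is the length of the shortest in vivo list. This was so for 21.4% of lost regions without an in vitro peak and 47.8% of all control regions. The 118 members are 3.44% (exact 95% interval 2.86 to 4.11) of the 3430 in vitro-bound control regions with control peaks that high. Among the 6927 control regions with peaks that high and no in vitro peak, 16.9% (16.0 to 17.8) were lost. Both shares moved with the libraries used, and the share with an in vitro peak was the lower one each time. They were 10.8% and 20.4% without control replicate 1, and 6.64% and 31.96% without control replicate 2. They were 4.43% and 20.2% without shPU.1 replicate 1, and 22.3% and 43.0% without shPU.1 replicate 2. In the 118 members the median scores were 133 and 237 in the control lists and 161 in vitro. In the other 722 members they were 70.9, 102 and 143.

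**Figure D2:**
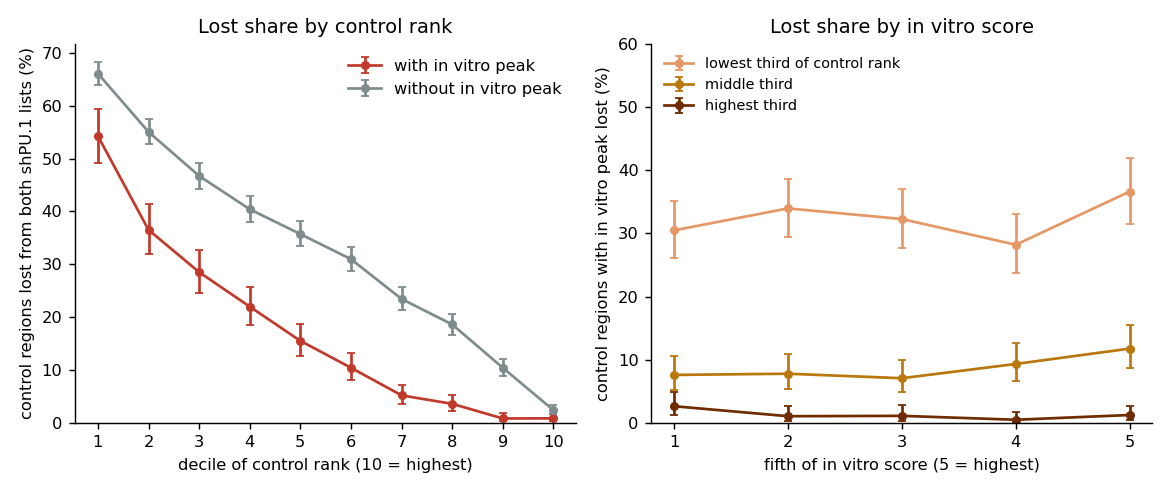
Left, percent of control regions lost from both shPU.1 lists by decile of control rank, with (red) and without (grey) an in vitro peak. Right, percent of in vitro-bound control regions that were lost, by quintile of in vitro score, drawn separately for each tertile of control rank. Quintiles and tertiles were cut over the in vitro-bound control regions, deciles over all control regions. Bars are exact 95% intervals over regions. The share falls with control rank, from 54.3% to 0.837% with an in vitro peak, and shows no steady slope along the in vitro score.

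In vitro, members were not weak sites. Their in vitro score had a median of 145 (quartiles 84.6 and 314), at a median percentile of 65.5 in the in vitro list, and 65.1% of members (exact 95% interval 61.8 to 68.3) were at or above that list's median score of 104. The median percentile was 64.2 in partial regions and 70.3 in kept ones. It was 46.1 for the 45623 in vitro peaks on no in vivo region. A score above percentile 90 of the in vitro list was found in 187 members (22.3%, 19.5 to 25.2), 17.5% (15.7 to 19.4) of partial and 23.7% (22.3 to 25.2) of kept regions with an in vitro peak. The intervals of members and kept regions overlapped for this share, while their median control scores were 74.3 against 183 in replicate 1.

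The lost share moved little along the in vitro score. Over quintiles of that score, from lowest to highest, 14.4%, 15.0%, 13.9%, 12.3% and 14.6% of in vitro-bound control regions were lost. Each of these shares lay inside the exact 95% interval of the first, 12.5 to 16.6, except the fourth. Quintiles and tertiles of control rank were each cut over all in vitro-bound control regions. In the lowest tertile of control rank the lost share was 30.5% (26.2 to 35.1) in the lowest quintile and 36.6% (31.5 to 42.0) in the highest. In the middle tertile it was 7.58% (5.24 to 10.5) and 11.7% (8.63 to 15.5), and in the highest tertile 2.62% (1.21 to 4.92) and 1.23% (0.45 to 2.66). The kept share went from 52.2% in the lowest quintile of all to 62.1% in the highest, and the partial share from 33.4% to 23.3%. Median control rank rose along with them, from 65.4 to 74.7. Within the lowest tertile of rank the kept share was 26.3% in the lowest quintile and 26.7% in the highest. In the middle tertile it was 51.7% and 55.7%, with 60.4% in the second quintile, and in the highest tertile 85.4% and 91.8%. Within members, Spearman's rho between control rank and in vitro percentile was 0.09 (n = 840 regions that share the same libraries), and it was 0.11 in kept regions (n = 3420). With the percentile of each control list alone, rho was -0.06 for replicate 1 and 0.19 for replicate 2 in members. In kept regions these were 0.06 and 0.17.

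In vitro and control peaks were centred close together. The mean distance of the in vitro peak's centre from the centres of the 2 control peaks had a median of 107.5 bp in members, 109.5 bp in partial and 113.25 bp in kept regions. It was within 200 bp in 74.0% of members (exact 95% interval 70.9 to 77.0), 74.9% of partial (72.8 to 77.0) and 73.8% of kept regions (72.3 to 75.3). Measured from each control list alone, the median in members was 97.0 bp in replicate 1 and 120 bp in replicate 2. This distance is about that between the control libraries themselves, 96.2 bp. The rule asked only for 1 shared bp, and 16 members (1.90%) shared fewer than 100 bp. In 773 members (92.0%) in vitro peaks shared bp with peaks of both control lists. In 66 (7.86%) they touched only the wider peak of control replicate 2. Peaks of both control lists were shared in 96.0% of kept and 94.0% of partial regions with an in vitro peak. Only that of control replicate 2 was touched in 2.89% and 4.28% of these, a lower share than in members.

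Few in vitro peaks lay far off centre. The distance was over 500 bp in 98 of the 840 members, leaving 742 (88.3%) within it, against 89.5% of kept regions. The lost share of in vitro-bound control regions was 14.2% (12.0 to 16.5) at distances up to 50 bp and 15.5% (12.7 to 18.5) at over 500 bp. By quartile of control rank within members, 76.2% of the lowest and 68.1% of the highest were within 200 bp. The median distance was 106.75 and 104.875 bp.

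**Figure D3:**
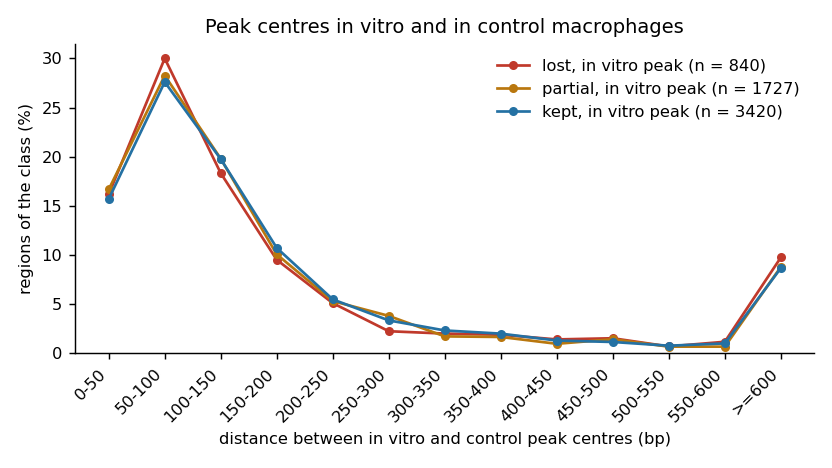
Percent of regions (y axis) by distance in bp between the in vitro peak centre and the control peak centres (mean of both lists), in 50 bp steps with a last pooled class from 600 bp. Members (red), partial (orange) and kept (blue) regions with an in vitro peak follow nearly the same curve, highest at 50 to 100 bp, where 30.0% of members lie.

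Among the 10 members with the highest control rank outside chromosome 18, in vitro strength and position varied widely. All positions are in mouse build mm9, counted from 1. The highest, chr2:26458980-26459790, scored 515 and 688 in the control lists and 91.0 in vitro, with centres 223 bp apart. The second, chr10:62705923-62707502, scored 502 and 678 in control and only 57.8 in vitro, at percentile 12.7 of that list and 558.75 bp off centre. The first region's in vitro peak stood at percentile 42.6 of that list. The region chr2:126532311-126534131 scored 426 and 651 in control and 64.4 in vitro, at percentile 20.6. The next, chr15:76368624-76369900, scored 357 and 733 in control and 56.8 in vitro, at percentile 11.3.

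At 3 of the 10, both assays gave high peaks with centres within 200 bp of each other. At chr7:87914501-87915684 the control scores were 300 and 956 and the in vitro score 447, with centres 84.0 bp apart. At chr4:59796095-59797032 they were 334, 703 and 454, with centres 42.75 bp apart. At chr9:114548505-114549672 they were 406, 427 and 597, with centres 192.5 bp apart. The nearest peak of any shPU.1 list was 2658 bp away from the chr7 region, 14677 bp from the chr4 region and 39165 bp from the chr9 region. These are the members of this set in which strong binding in control cells, strong binding in vitro and no called peak under the hairpin coincide.

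The other 3 of the 10 had the in vitro peak at the side or off centre. At chr4:6380281-6381298 (331 and 611 in control, 96.5 in vitro) the centres were 782.5 bp apart, and at chr7:63097069-63098577 (250 and 647 in control, 75.6 in vitro) 1168.25 bp apart. At chr4:124479251-124480815 (330 and 424 in control, 163 in vitro) they were 304.25 bp apart.

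**Figure D4:**
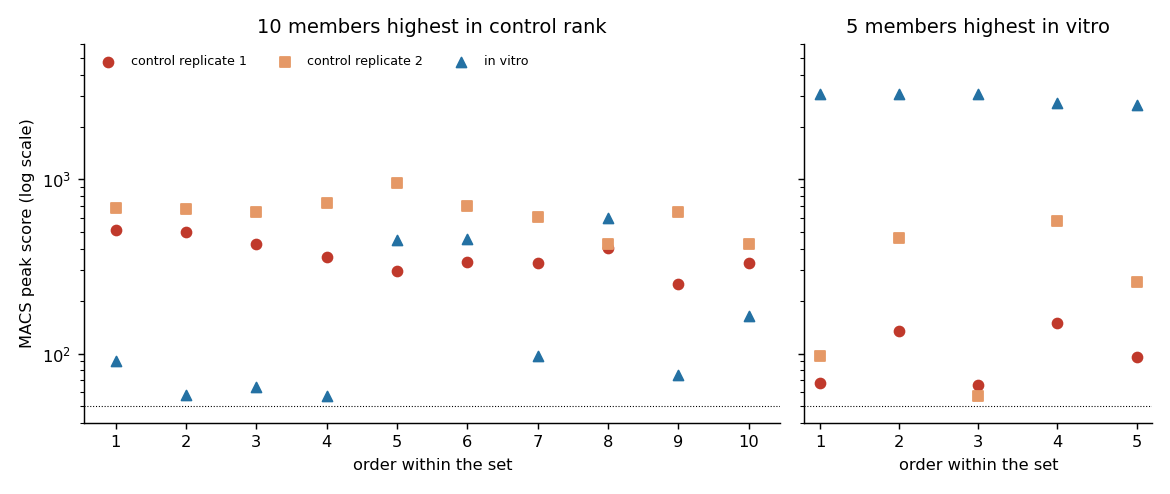
MACS peak scores on a log axis of the 10 members highest in control rank (left) and the 5 highest in vitro (right), 1 column per region from highest to lowest, with control replicate 1 (circles), control replicate 2 (squares) and in vitro (triangles). The dotted line is the lowest score, 50, and neither shPU.1 list has a peak in any of them. On the left 6 of 10 in vitro scores lie below 100, and on the right the in vitro scores run from 2668 to 3100 while control scores run from 57.2 to 579.

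The 5 members with the highest in vitro scores outside chromosome 18 ranged widely in cells, with control ranks from 16.4 to 82.5. In 3 of them both control peaks were among the 15122 highest of their lists. In vitro, 3 had a score of 3100, a value that 57 in vitro peaks reached or exceeded (the highest score was 3142.8). The first, chr11:43004718-43005522, scored only 68.0 and 96.9 in the control lists. The region chr15:8471074-8471847 scored 135 and 462. The third, chr3:43744019-43744691, scored 66.0 and 57.2 and lay inside an in vitro peak of 9209 bp, the only member with an in vitro peak wider than 5000 bp. Its nearest control region was 2197091 bp away. At chr10:26561704-26562402 the scores were 150 and 579 in control and 2732 in vitro, with centres 29.25 bp apart. At chr9:121602842-121603883 they were 96.1, 258 and 2668, with centres 45.5 bp apart. Control replicate 2 gave the higher score in all of these except the chr3 region.

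Some members lay at the edges of the rule. The shortest overlap among the members outside chromosome 18 was 12 bp, at chr2:13707615-13708174, beside an in vitro peak scoring 1438. The same member had the nearest shPU.1 peak of these, 18 bp away in replicate 2, with a score of 110. Overlaps of 24 bp and 27 bp were found at chr9:55393403-55394793 and chr7:116599979-116600825. Just outside, the lost regions chr12:87165402-87166319 and chr13:49405247-49406208 each lay 5 bp from an in vitro peak, and chr10:82640695-82641280 lay 13 bp from one. Within 100 bp of an in vitro peak, but sharing none, were 19 of the 5461 lost regions without one (0.348%). On the side of the shPU.1 lists, chr15:98557751-98558901 was 32 bp and chr1:74481968-74483036 was 47 bp from a peak of shPU.1 replicate 2, with scores of 75.03 and 126. The 3 members with the lowest control rank there scored barely above the limit of 50: 50.4 and 51.5 at chr7:52095297-52096290, 50.9 and 52.0 at chr2:80107037-80107433, and 52.0 and 51.4 at chr9:121767009-121768037.

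Most members, like most lost regions without an in vitro peak, had no remaining PU.1 peak close by under the hairpin. The rule already left out regions sharing bp with a shPU.1 peak. The gap to the nearest peak of either shPU.1 list had a median of 11042.5 bp (quartiles 4107.5 and 24812.5), against 10382 bp for lost regions without an in vitro peak. A shPU.1 peak lay within 1 kb of 63 members (7.5%, exact 95% interval 5.81 to 9.50) and within 2 kb of 114 (13.6%, 11.3 to 16.1). For lost regions without an in vitro peak these shares were 9.27% (8.51 to 10.1) and 15.1% (14.2 to 16.1). By list, a peak of shPU.1 replicate 1 lay within 2 kb of 58 members and one of replicate 2 within 2 kb of 98. The second of these lists is the longer one.

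**Figure D5:**
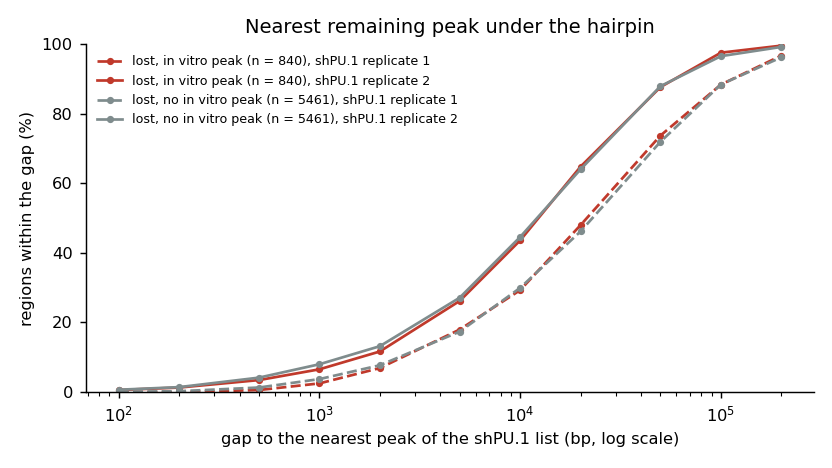
Percent of lost regions (y axis) with a peak of shPU.1 replicate 1 (dashed) or replicate 2 (solid) within a given gap in bp (x axis, log scale), for members (red) and lost regions without an in vitro peak (grey). The curves of both classes run close together, and the median gap to either list is 11042.5 bp for members and 10382 bp for the others.

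Shares of members with a neighbouring control region were near those over all control regions. Another control region lay within 10 kb of 367 members (43.7%, exact 95% interval 40.3 to 47.1) and a kept region within 10 kb of 193 (23.0%, 20.2 to 26.0). Over all 21680 control regions these shares were 45.5% and 23.3%, near those of members, and for lost regions without an in vitro peak 46.5% (45.2 to 47.9) and 22.2% (21.2 to 23.4). At any distance, the nearest other control region was kept for 43.7% of members (40.3 to 47.1), partial for 29.6% (26.6 to 32.9) and lost for 26.7% (23.7 to 29.8). Over all control regions it was kept for 40.5% and lost for 28.8%. Around lost regions without an in vitro peak it was kept for 38.3% (37.1 to 39.6) and lost for 31.7% (30.4 to 32.9). Around kept regions with an in vitro peak the shares were 42.5% (40.8 to 44.2) and 26.7% (25.2 to 28.2). The neighbour itself held an in vitro peak for 31.0% of members (27.8 to 34.2), 25.7% (24.5 to 26.8) of lost regions without one and 30.0% (28.5 to 31.6) of kept regions with one. Neighbouring regions share libraries and are not replicates, so these intervals cover counting of regions only.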

How the data were processed

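PU.1 ChIP-seq peak lists of 4 macrophage libraries and 1 in vitro list were used. Per the submitters' processing notes, the authors aligned reads with Bowtie 0.12.7 to mm9 and called peaks with MACS 1.4. Settings of both steps: not given in the sources used here. Deposited BED lists hold a peak score per peak, called per library against an input or, in vitro, on the IgG-depleted against the PU.1-depleted library, per the file names. Lists hold no read counts, so depth is unknown and unadjusted. Peaks were merged where they shared 1 bp. With several peaks of one list in a region, the highest stood for it. Gaps are unshared bases between intervals. Intervals are exact (Clopper-Pearson, 95%) and cover counting only. Regions were named by rule: 10 highest in control rank, 5 highest in vitro, 3 each at the limits of overlap, shPU.1 gap and control rank, and the longest run of members; regions on chromosome 18 (24 members) were counted, not named. Members and lists were chosen with earlier results of these data known. The code was checked on simulated lists. Python 3.11.15, pandas 2.3.3 and SciPy 1.17.1 were used. Sequence and genes at the regions, which need an mm9 reference, were not analysed here.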

Additional observations from a re-analysis of the deposited data

How the results depend on the processing

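The number of regions changed most with thresholds and libraries. With a score of at least 100 in all 5 lists there were 283 such regions (7.97% of lost regions), of which 96 matched the 840, and with equal in vivo list lengths 220 (11.1%), of which 118 did. In both settings, control regions whose shPU.1 peaks fell below the cut counted as lost. With the control lists alone shortened, chosen after seeing the data, there were 118 (9.14%). The share was 12.3% with the in vitro centre inside the region and 9.87% with centres at most 200 bp apart, also chosen after seeing the data. Leaving out 1 library gave 959 to 3372 regions, or 9.60% to 21.4% of lost regions. Pairing by replicate number (a replicate block) gave a mean of 3284 regions and 18.03%. No label ties equal numbers to one mouse or day, and over 8666 kept regions the differences between numbers had a rho of 0.12 between groups. The block left the log2 ratio of peak numbers negative (-0.70), as did each left-out library (-1.14 to -0.27), against -0.64.

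The median control rank was 69.9 with the score minimum of 100, 72.8 with equal lengths and 28.3 to 51.2 with a library left out. Percentiles were those of the full lists, so dropping low peaks raises them by construction. Without a control library, the rank is the percentile in the other control list alone. The median centre distance ran from 88.5 to 107.75 bp with a library left out and the in vitro percentile from 64.6 to 68.6; the latter was 80.1 at a score of at least 100. Another control region lay within 5 kb of 28.3% and within 50 kb of 82.4% of members, and within 10 kb of 27.2% at a score of at least 100 and 41.5% to 48.6% with a library left out. For kept regions these were 14.9%, 58.6%, 9.54% and 18.3% to 31.9%. A shPU.1 peak lay within 1 kb of 7.5% and within 5 kb of 29.6%, and within 2 kb of 7.89% to 11.3% with an shPU.1 library left out. Fewer libraries or peaks then define the regions by construction. Trimming peaks to 200 bp (743 regions), an overlap of 100 bp (824), leaving out in vitro peaks wider than 5000 bp (839) and omitting chromosomes X, Y and M (832) kept the count within 1.5 times.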

Other observations

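Members were spread over 20 chromosomes. Of the 840, 808 had no other member within 10 kb and the others formed 16 pairs. Another lost region, with or without an in vitro peak, lay within 10 kb of 17.0% of members and 17.1% of all control regions. Whether members cluster more or less than other control regions was not tested. The pair with the widest span, at chr1:182742591-182753062, joined a region scoring 85.9 and 198 in the control lists and 52.1 in vitro with one scoring 59.2, 219 and 52.5. By chromosome, members made up 9.83% (chromosome 17) to 18.7% (chromosome 14) of the lost regions of an autosome. On chromosome X they made up 8 of 126 (6.35%, exact 95% interval 2.78 to 12.1), against 13.5% (12.6 to 14.4) of autosomal lost regions. Among in vitro-bound control regions the lost share was 13.8% (6.15 to 25.4) on X, 8 of 58, and 14.0% (13.2 to 15.0) on autosomes. In vitro peaks lay in 36.8% (27.6 to 46.7) of kept regions on X and in 39.5% (38.4 to 40.5) on autosomes.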
